A study of Mus musculus with 6 samples.

Results

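Jmjd1c and 7 related genes for enzymes that remove methyl groups from lysine 9 of histone H3 (H3K9) were followed across control and Jmjd1c knockdown mouse embryonic stem cells. The members were every probe set whose only gene symbol in the array's annotation was Jmjd1c, Kdm3a, Kdm3b, Kdm4a, Kdm4b, Kdm4c, Kdm4d or Phf8, which gave 14 of the 45101 probe sets on the array, for 8 of the 18193 genes it names. Jmjd1c and Phf8 had 3 probe sets each, Kdm3b and Kdm4a had 2 each, and the other 4 genes had 1 each. A probe set is a group of short probes that together read 1 stretch of a transcript, so probe sets of 1 gene can differ in what they measure.

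Total RNA came from the mouse embryonic stem cell line J1, grown on plates coated with gelatin (the labels name no feeder cells) in medium with 15% serum and 1000 U/ml of leukemia inhibitory factor. It was read on Affymetrix Mouse Genome arrays, 1 sample per array. All groups carried a pLKO.1 lentivirus and were selected with puromycin at 1.5 ug/ml for 2 days, starting 1 day after infection, then replated and grown for 4 days. The 3 groups were a non-targeting hairpin in cells labelled wild type (shNT), and the hairpins shJmjd1c#3 (sh3) and shJmjd1c#4 (sh4) in cells labelled Jmjd1c knockdown. Each group had 2 arrays, called biological replicates in the labels. Both hairpins share 1 control group, so each difference from shNT rests on the same 2 control arrays.

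Methylated H3K9 is a mark of silent chromatin, and the enzymes studied here remove it with a JmjC domain that needs iron, oxygen and 2-oxoglutarate. The KDM3 enzymes, Kdm3a, Kdm3b and Jmjd1c, act on mono- and dimethylated H3K9, although the activity of Jmjd1c itself is debated. The KDM4 enzymes act on di- and trimethylated H3K9 and, in part, on H3K36, and Phf8 acts on mono- and dimethylated H3K9 and on H4K20. In mouse embryonic stem cells, Kdm3a and Kdm4c are known for their part in keeping self-renewal genes expressed.

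RefSeq annotates Jmjd1c with more than 1 start site, and these are shown as a description. Whether the starts bear on its probe sets, which differed from control in opposite directions, was not tested. The windows from 250 bases before to 50 bases after a start (build GRCm38.p6, credited to RefSeq) are shown for both Jmjd1c starts and, for comparison, for the outermost start of its paralogue Kdm3a, on the minus strand. Capitals mark ACGTG and GCGTG and their reverse complements CACGT and CACGC, the core letters bound by hypoxia-inducible factors. Kdm3a is known as a hypoxia-induced gene.
Jmjd1c upstream start, chr10:67126838-67127137, plus strand: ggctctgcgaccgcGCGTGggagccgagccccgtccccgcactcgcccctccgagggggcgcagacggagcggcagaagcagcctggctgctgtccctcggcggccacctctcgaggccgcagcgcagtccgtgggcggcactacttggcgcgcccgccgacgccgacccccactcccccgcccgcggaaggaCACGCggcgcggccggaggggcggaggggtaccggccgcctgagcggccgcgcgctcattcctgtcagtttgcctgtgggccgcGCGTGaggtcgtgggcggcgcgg
Jmjd1c downstream start, chr10:67185500-67185799, plus strand: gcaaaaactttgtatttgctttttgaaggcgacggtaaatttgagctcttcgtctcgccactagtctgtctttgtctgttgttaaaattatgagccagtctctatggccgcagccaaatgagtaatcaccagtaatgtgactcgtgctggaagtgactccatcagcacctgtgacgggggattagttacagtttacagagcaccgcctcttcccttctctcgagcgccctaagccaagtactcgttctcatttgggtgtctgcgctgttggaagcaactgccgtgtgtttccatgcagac
Kdm3a outermost start, chr6:71632868-71633167, minus strand: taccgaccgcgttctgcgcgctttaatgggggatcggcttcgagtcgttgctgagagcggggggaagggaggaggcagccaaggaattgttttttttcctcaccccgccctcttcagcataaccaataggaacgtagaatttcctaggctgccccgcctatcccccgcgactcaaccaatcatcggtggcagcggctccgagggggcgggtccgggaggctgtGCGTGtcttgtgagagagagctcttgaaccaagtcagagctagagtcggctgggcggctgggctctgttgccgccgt

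The upstream Jmjd1c window was 78.0% G and C with 47 CG dinucleotides and held 3 matches. The downstream window was 48.3% G and C with 13 CG dinucleotides and held 0 matches. The Kdm3a window was 60.7% G and C and held 1 match. Of the 32851 annotated windows of 300 bases in the mouse table, 43.8% held at least 1 match, so a match is common. In all, 4 of the 10 windows used for 6 of the member genes held one. Windows of Kdm3b and Kdm4b were not used. Which start, or which hairpin target, each Jmjd1c probe set lies near was not analysed here.

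The median signal of an array was 69.3 to 81.3, and the mean after trimming 2% at each end was 500.003 on all 6 arrays, so the deposited values had been scaled. All 12 embryonic stem cell markers examined were brighter on average than 40% of probe sets, and Pou5f1, the core pluripotency factor, read 10328 ± 1781 in shNT (SD, n = 2) and 9993 ± 690 in knockdown arrays (SD, n = 4). Differences of those 12 markers between knockdown and control were negative for 11, with a median of -0.30 on the log2 scale. Those with the smallest p were Klf4 (-0.55), Esrrb (-0.77) and Sox2 (-0.33). By limma 0 of the 12 passed after adjustment and 4 had an unadjusted p under 0.05, all lower, beside 10.3% of all genes. With the replicate number as a block Klf4, Esrrb and Tfcp2l1 fell by limma, 3 of the 12, where 1.54% of all genes passed. The summed signal of the 12 was 118824 and 142742 in shNT against 100713 to 115995 in the knockdown arrays. Of 12 feeder fibroblast markers 11 were measured and 9 had positive differences, with a summed signal of 794 and 836 in shNT, 1113 and 1124 in sh3, and 1462 and 1361 in sh4. Of these 11, 8 were brighter on average than 40% of probe sets, and none was at 0. Those with the smallest p were Col3a1 (mean 31.6 in shNT and 181 in knockdown arrays, log2 2.01), Dcn (11.3 and 77.0, log2 1.67) and Col1a2 (114 and 200, log2 0.87). The SEs of these 3 differences were 0.33, 0.34 and 0.42. At Col1a2 the controls read 52.1 and 176, and sh3 replicate 1 lay between them at 118. The dim matrix gene Lum had means of 12.6 and 30.3, with its controls at 20.8 and 4.36. By limma 0 of the 11 passed after adjustment and 2 had an unadjusted p under 0.05, both higher. With the replicate number as a block 1 of the 11, Col3a1, rose by limma. In a whole-culture sample, fewer cells of a type and less RNA per cell cannot be told apart. RNA integrity was judged by Actb control probe sets, whose 3' signal was 2.26 and 2.40 times the 5' signal in sh3 and 2.70 to 2.81 times in the other 4 arrays. The same ratio for Gapdh did not set sh3 apart, at 1.30 and 1.47 in sh3, 1.33 and 1.49 in sh4, and 1.38 and 1.68 in shNT, and was higher in replicate 2 of each group. The marker shifts ran along with the comparison of knockdown and control, and the Actb ratio with sh3, and their part in the members' values was not tested.

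**Figure D1:**
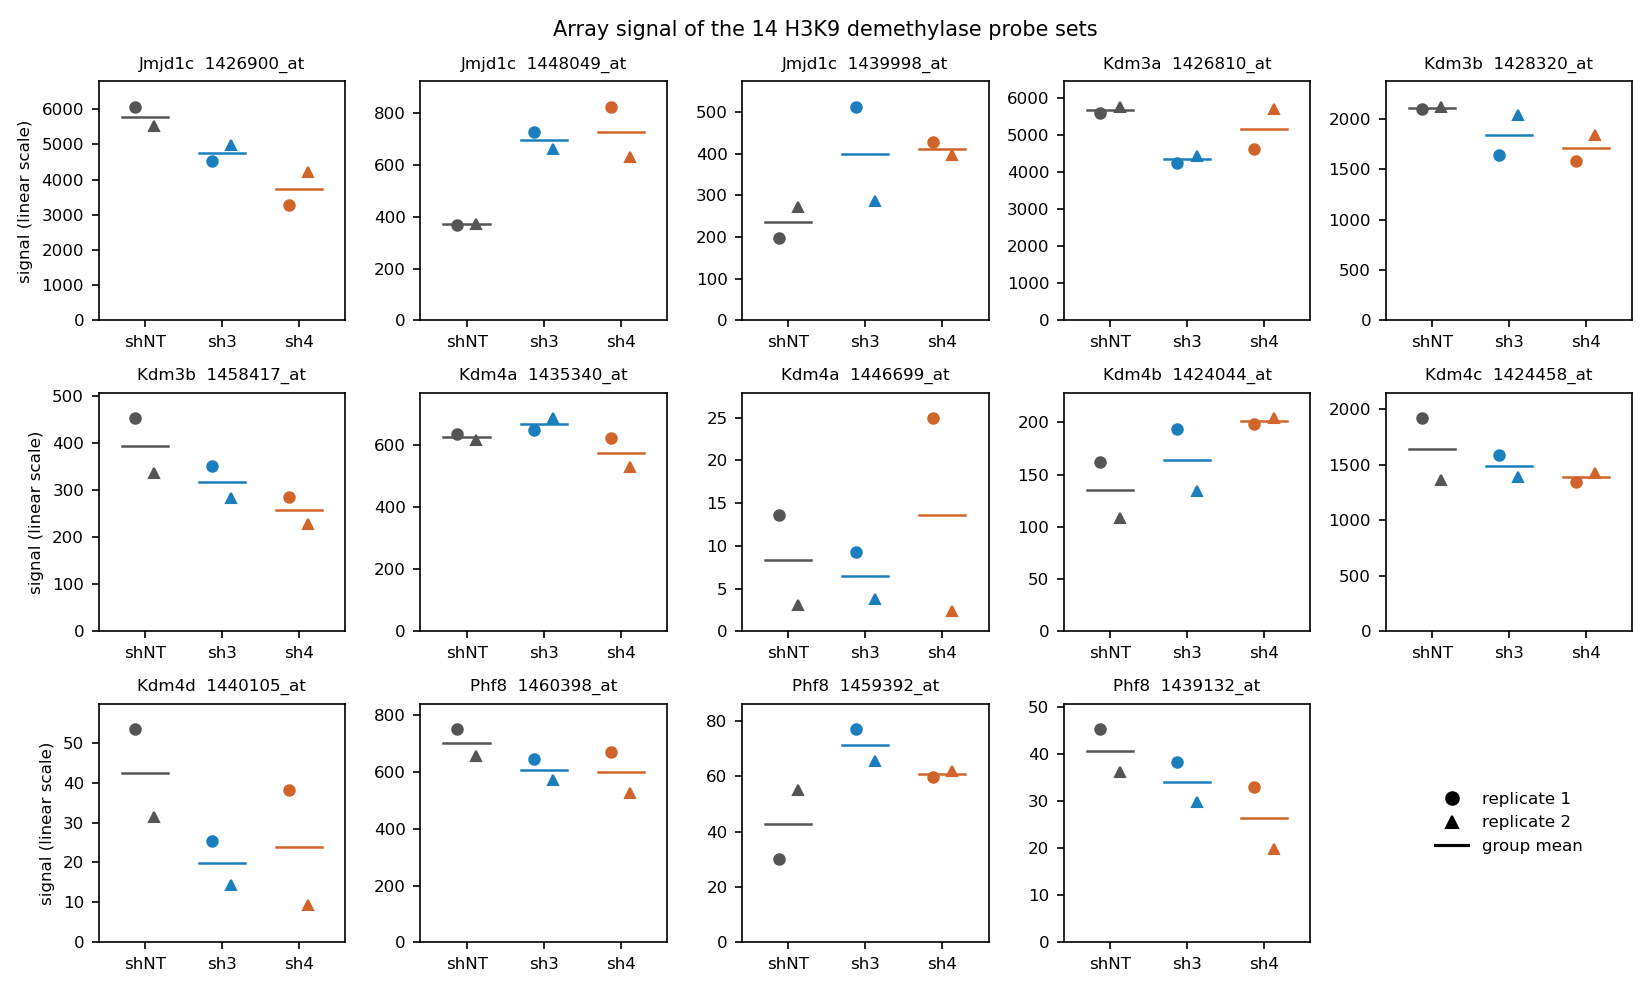
Signal of each of the 14 probe sets (vertical axis, linear scale from 0, a separate axis for each panel) in the 6 arrays, by group; circles are replicate 1, triangles replicate 2 and lines the group means of 2 arrays. The 3 Jmjd1c panels open the plot: at 1426900_at all 4 knockdown arrays lie below both controls, and at 1448049_at and 1439998_at all 4 lie above them.

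The targeted gene was read first, by probe sets that differed from control in opposite directions. Probe set 1426900_at of Jmjd1c read 6060.3 and 5516 in shNT, 4541 and 4984 in sh3, and 3274 and 4215 in sh4. All 4 knockdown arrays were below both controls, and both sh4 arrays were below both sh3 arrays. Its mean was 82.3% of control in sh3, 64.7% in sh4 and 73.5% over both hairpins. On the log2(signal + 16) scale, used for all differences, the mean of both hairpins minus shNT (the knockdown mean) was -0.46 (SE 0.13, limma adjusted p = 0.358, by Benjamini-Hochberg across the 45037 probe sets that are not controls), which did not pass the threshold of 0.05. A 95% interval for this difference ran from -0.74 to -0.17.

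Probe set 1448049_at of the same gene read 368 and 373 in shNT, 727 and 659.9 in sh3, and 822 and 629.6 in sh4. The controls lay close together and every knockdown array was above them, with no separation of the hairpins. The difference was 0.90 in the knockdown mean (SE 0.15, 95% interval 0.56 to 1.25, limma adjusted p = 0.117), 0.87 in sh3 and 0.93 in sh4. Probe set 1439998_at read 198 and 273 in shNT, 511 and 286 in sh3, and 427 and 397 in sh4. All knockdown arrays were again above both controls, although sh3 replicate 2 exceeded shNT replicate 2 by little. Its difference was 0.73 (SE 0.25, 95% interval 0.18 to 1.29, limma adjusted p = 0.439).

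With the replicate number as a block, 1448049_at passed by limma in the knockdown mean (adjusted p = 0.0127), in sh3 (0.0400) and in sh4 (0.0219). With the same block 1426900_at passed in sh4 alone (log2 -0.64, limma adjusted p = 0.0394) and not in sh3 (log2 -0.28, adjusted p = 0.416) or in the knockdown mean (adjusted p = 0.0745). Probe set 1439998_at did not pass with the block (adjusted p = 0.197 in the knockdown mean by limma). With the block, then, the targeted gene had 1 probe set that rose under both hairpins and 1 that fell under sh4. No label states the pairing behind the block, which rests on these arrays alone, and without the block neither passed. When the log2 values of the 3 probe sets were averaged, Jmjd1c was at 0.39 (SE 0.12, limma adjusted p = 0.345 over 18193 genes), so the sign for the gene depended on which probe set was read. The groups are therefore called knockdown by their labels.

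The size of the divergence between the Jmjd1c probe sets was described by their ratio within each array, in which a scaling of the whole array largely cancels. The log2 ratio of 1448049_at to 1426900_at, relative to its shNT mean, was -0.08 and 0.08 in shNT, 1.29 and 1.02 in sh3, and 1.93 and 1.19 in sh4, so the knockdown mean exceeded control by 1.36. For 1439998_at over 1426900_at the ratio was -0.29 and 0.29 in shNT, 1.43 and 0.49 in sh3, and 1.65 and 1.19 in sh4, a difference of 1.19. That no knockdown array overlapped a control in either ratio follows from the positions of the single probe sets given above and is no separate evidence. No p is given for the ratios, since that separation sets their permutation p at the smallest value that 6 arrays allow.

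**Figure D2:**
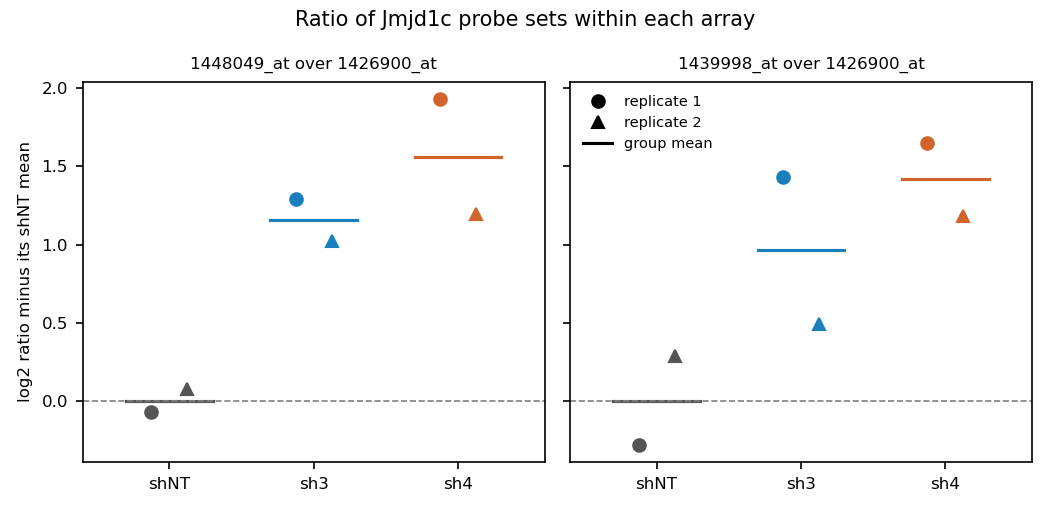
Log2 ratio of a dimmer Jmjd1c probe set to 1426900_at within each array, minus the mean of the 2 shNT arrays (vertical axis), by group; circles are replicate 1, triangles replicate 2 and lines group means. Knockdown arrays range from 1.02 to 1.93 for 1448049_at and from 0.49 to 1.65 for 1439998_at, above the shNT arrays in both panels.

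The genes whose values over the 6 arrays were most like each Jmjd1c probe set differed between the probe sets. For 1426900_at they were Ankrd28, a regulatory subunit of protein phosphatase 6 (Pearson r = 0.999), Pla2g5, a secreted phospholipase (0.996), Stk31, a kinase-like germ cell gene (0.994), and Ireb2, an iron-sensing RNA-binding protein (0.994). For 1448049_at they were Lpar6, a receptor for lysophosphatidic acid (r = 0.997), Tmem167 (0.995), the transcription factor Ubp1 (0.995) and the insulin-degrading enzyme Ide (0.995). For 1439998_at they were the tubulin gene Tubb4b (r = 0.990), Fam217b (0.986), Greb1l (0.983) and the cilium gene Dzip1l (0.978). These are descriptions over 6 arrays, picked as the highest of many correlations, and all values share the 6 arrays and their scaling. The names of the Stk31 and Tubb4b probe sets mark probes that can match other transcripts.

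The paralogues of Jmjd1c were lower on average in knockdown arrays, but none passed the test. Kdm3a, the best-studied H3K9 demethylase of this family in stem cells and testis, read 5595 and 5757 in shNT, 4258 and 4429 in sh3, and 4619 and 5708 in sh4 at 1426810_at. Both sh3 arrays were below both controls and below both sh4 arrays, whereas sh4 replicate 2 lay between the controls. The difference was -0.39 in sh3 (SE 0.13, 95% interval -0.68 to -0.09, limma adjusted p = 0.606), -0.14 in sh4 (SE 0.13, adjusted p = 0.818) and -0.26 in the knockdown mean (SE 0.11, adjusted p = 0.566). The sh3 arrays were also those with the lower Actb ratio given above, though not with a lower Gapdh ratio. In order of group means Kdm3a ran shNT, sh4, sh3, and shNT and sh4 overlapped.

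Kdm3b, the broadly expressed paralogue, read 2103 and 2120.1 in shNT, 1641 and 2045 in sh3, and 1586 and 1842 in sh4 at 1428320_at. All 4 knockdown arrays were below both controls, and the hairpins overlapped each other. The difference was -0.25 (SE 0.13, 95% interval -0.54 to 0.03, limma adjusted p = 0.634). Its dimmer probe set 1458417_at read 454 and 337 in shNT, 352 and 285 in sh3, and 287 and 228 in sh4. Both sh4 arrays and sh3 replicate 2 lay below both controls there, and the difference was -0.44 in the knockdown mean (SE 0.20) and -0.58 in sh4 (SE 0.23, limma adjusted p = 0.515). Both probe sets of Kdm3b had negative differences under each hairpin, whereas the Jmjd1c probe sets differed in sign from one another.

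**Figure D3:**
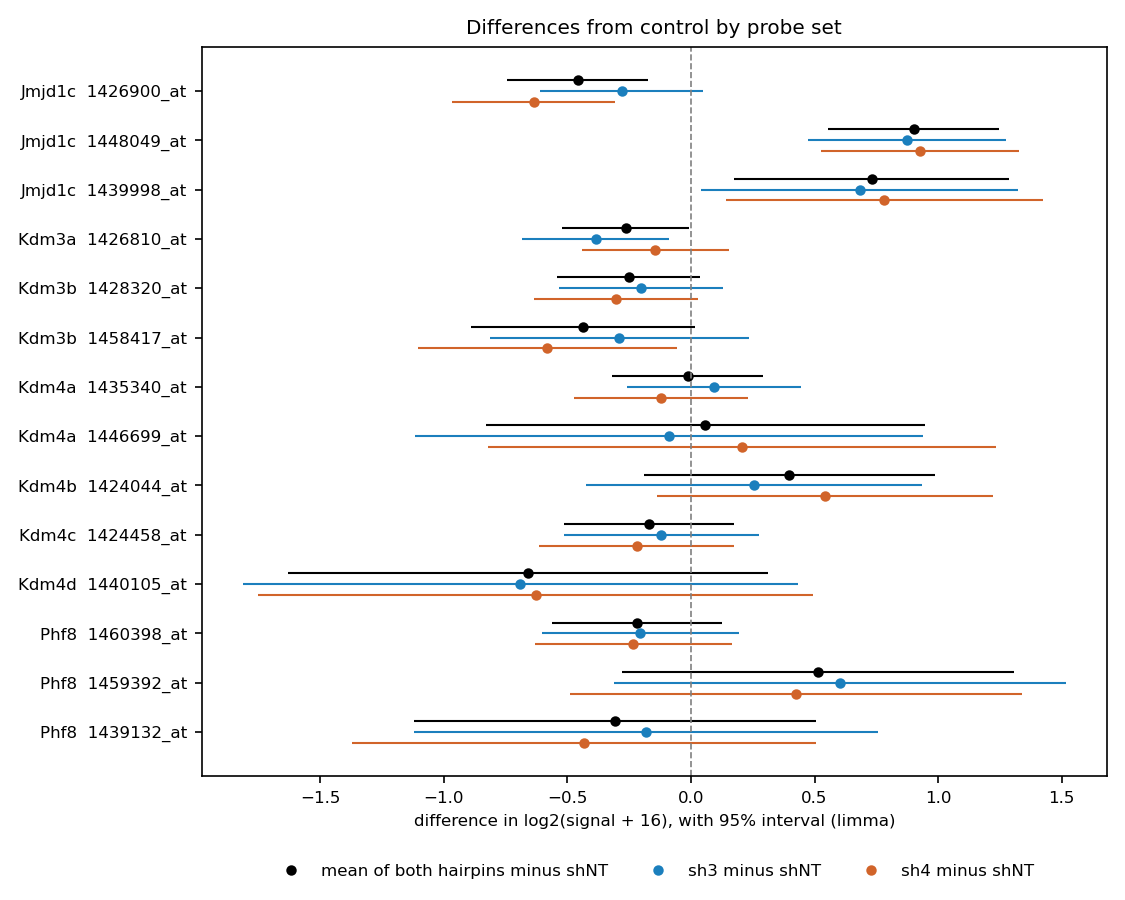
Difference from shNT in log2(signal + 16) (horizontal axis) for each of the 14 probe sets, as points with 95% intervals from limma: black for the mean of both hairpins, blue for sh3 and orange for sh4. The intervals of the 3 Jmjd1c probe sets in the knockdown mean exclude 0, on opposite sides (-0.46 against 0.90 and 0.73), as does that of Kdm3a (-0.26), and none of these passed after adjustment.

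Among the KDM4 genes no probe set separated all knockdown arrays from the controls. Kdm4a, which has PHD and Tudor domains beside its JmjC domain, read 633 and 615 in shNT, 648 and 685 in sh3, and 620.03 and 529 in sh4 at 1435340_at. The sh3 arrays were just above both controls and above both sh4 arrays, with differences of 0.09 in sh3 and -0.12 in sh4 (SE 0.16 each). In the knockdown mean the difference was -0.01 (SE 0.13, 95% interval -0.32 to 0.29), and it took the other sign without shNT replicate 1, sh3 replicate 1 or sh4 replicate 2. The other Kdm4a probe set, 1446699_at, read between 2.40 and 24.95 on the 6 arrays. Its mean exceeded that of only 9.02% of probe sets, so it carries little information, and its difference of 0.06 (SE 0.39) changed sign with the scaling.

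Kdm4b, a hypoxia- and hormone-responsive member, read 162 and 109 in shNT, 194 and 134 in sh3, and 198 and 204 in sh4. Both sh4 arrays were above both controls, while sh3 replicate 2 lay between them. It was the only member gene whose brightest probe set had a positive difference, 0.40 in the knockdown mean (SE 0.26, 95% interval -0.19 to 0.99, limma adjusted p = 0.731). That difference was 0.66 without shNT replicate 1 and 0.14 without shNT replicate 2. Kdm4c, described as a supporter of Nanog expression, read 1921 and 1361 in shNT, 1593 and 1388 in sh3, and 1349 and 1425 in sh4. The controls spanned the sh3 arrays, and the difference was -0.17 (SE 0.15, limma adjusted p = 0.816). It was 0.08 without shNT replicate 1, the highest array, and -0.42 without shNT replicate 2. Kdm4d, a short member that lacks the PHD and Tudor domains and is mainly known from testis, read 53.4 and 31.3 in shNT, 25.4 and 14.4 in sh3, and 38.2 and 9.36 in sh4. The sh3 arrays were below both controls and sh4 was not, and the difference was -0.66 with a wide error (SE 0.43, 95% interval -1.63 to 0.31, limma adjusted p = 0.731).

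Phf8, an X-linked demethylase whose PHD finger binds methylated H3K4, read 751 and 655 in shNT, 644 and 571 in sh3, and 669 and 527 in sh4 at its brightest probe set, 1460398_at. The sh3 arrays were below both controls, sh4 replicate 1 was not, and the difference was -0.22 (SE 0.15, 95% interval -0.56 to 0.13, limma adjusted p = 0.750). Its 2 dim probe sets had opposite signs. Probe set 1459392_at read 30.2 and 55.0 in shNT, 77.0 and 65.4 in sh3, and 59.8 and 61.9 in sh4. Every knockdown array was above both controls, with a difference of 0.51 (SE 0.35, limma adjusted p = 0.745) that was 0.82 without shNT replicate 2 and 0.20 without shNT replicate 1. Probe set 1439132_at read 45.4 and 36.2 in shNT, 38.4 and 29.8 in sh3, and 33.0 and 19.9 in sh4. The sh4 arrays were below both controls there, with a difference of -0.31 in the knockdown mean (SE 0.36, limma adjusted p = 0.872).

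Over the 14 member probe sets, 0 passed by limma in the knockdown mean, where 0.0422% of all 45037 probe sets did, and 1 passed with the block, where 1.03% did. An unadjusted p under 0.05 was seen for 4 of the 14, against 8.66% of all probe sets. They were the 3 probe sets of Jmjd1c, the targeted gene, and Kdm3a, so outside Jmjd1c only Kdm3a was among them. All 4 knockdown arrays lay to 1 side of both controls for 5 of the 14 (35.7%), against 17.3% of all probe sets. Of these 3 were higher and 2 lower, where the background was 9.66% higher and 7.62% lower. Of these 5, 3 belonged to Jmjd1c itself and the others were Kdm3b at 1428320_at and Phf8 at 1459392_at. The median difference was -0.19 over the 14 and -0.24 over the 8 genes at their brightest probe set, beside 0.02 over all probe sets, and 7 of the 8 genes were negative there. That count depended on the probe set read, since it took Jmjd1c, the targeted gene, at 1426900_at. With the probe sets of a gene averaged, Jmjd1c was at 0.39, Kdm4a at 0.023 and Phf8 at -0.004. By mean, 11 of the 14 probe sets reached the 40th percentile (a signal of 40.1), and those below it were Kdm4d, Kdm4a at 1446699_at and Phf8 at 1439132_at.

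Taken by hairpin, 0 of 14 passed by limma in sh3, where 0% of all probe sets did, and 0 in sh4, where 0.0155% did. An unadjusted p under 0.05 was found for 3 in sh3 (background 6.97%) and 4 in sh4 (background 8.86%). Those in sh3 were Jmjd1c at 1448049_at and 1439998_at, and Kdm3a. Those in sh4 were the 3 of Jmjd1c, and Kdm3b at 1458417_at. Both arrays of the hairpin lay to 1 side of both controls for 9 of 14 in sh3 and for 8 of 14 in sh4, against 36.1% and 36.0% of all probe sets. Each of these counts includes the 3 probe sets of Jmjd1c. With the block 1 passed in sh3 and 2 in sh4, where 0.540% and 0.924% of all did.

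The hairpins were compared with each other directly. For sh4 minus sh3, 0 of 14 passed by limma (0% of all probe sets; lowest adjusted p = 0.946), 1 had an unadjusted p under 0.05 (5.16% of all), and 5 had arrays that did not overlap (35.8% of all). The 1 was Jmjd1c at 1426900_at, with a difference of -0.36 (SE 0.15, 95% interval -0.69 to -0.03). Kdm3a lay the other way at 0.24 (95% interval -0.06 to 0.54). At Jmjd1c 1448049_at the difference was 0.05, with an interval from -0.35 to 0.45.

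Other enzymes and factors around H3K9 methylation were read at the brightest probe set of each gene. Of 25 other JmjC and LSD genes, not all of them for histone demethylases, 24 were measured. By limma 0 rose and 0 fell in the knockdown mean, where 0.0715% of the 18193 genes passed. Over those 18193 genes 10.3% had an unadjusted p under 0.05. In that list, 2 genes had an unadjusted p under 0.05. Kdm5b, an H3K4 demethylase of stem cells, read 5272 and 5729.8 in shNT and 4272 to 4360 in the knockdown arrays, all below both controls (log2 -0.35, SE 0.10, limma adjusted p = 0.363). Kdm2b, an H3K36 demethylase that brings a Polycomb complex to CpG islands, read 4387 and 3399 in shNT and 4717 to 5547 in the knockdown arrays, all above both controls (log2 0.41, SE 0.13, limma adjusted p = 0.412), at a probe set whose name marks probes shared with other transcripts. Tyw5, a JmjC protein of tRNA modification, was at 0.20 (SE 0.13). The list's median was 0.08, with 15 positive and 9 negative, beside a median of 0.02 over all genes at their brightest probe set.

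Among 18 H3K9 methyltransferases and readers, 17 were measured, 0 passed by limma, and the median was -0.04, with 7 positive and 10 negative. An unadjusted p under 0.05 was seen for 4, of which 3 were lower and 1 was higher, beside 10.3% of all genes. The 3 genes named here are the lower ones. Cdyl2, a chromodomain protein, read 5108 and 5258 in shNT and 2225 to 3492 in the knockdown arrays, all below both controls (log2 -0.997, SE 0.17, limma adjusted p = 0.117), and it fell with the block (limma adjusted p = 0.0119). Cbx3, which encodes HP1 gamma, was read by a dim probe set at 151 and 108 in shNT and 12.0 to 90.6 in the knockdown arrays (log2 -1.43, SE 0.45, limma adjusted p = 0.412). Setdb2, an H3K9 methyltransferase, was at -0.38 (SE 0.16). With the block 1 gene of this list passed, beside 1.54% of all genes.

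The 2-oxoglutarate and iron supply list, for the cofactors of JmjC enzymes, had 14 of 16 genes measured, 0 passing by limma and a median of -0.05. An unadjusted p under 0.05 was seen for 1 of these genes, which was lower, beside 10.3% of all genes. The mitochondrial isocitrate dehydrogenase Idh2 was at -0.32 (SE 0.13), Idh3g at -0.22 (SE 0.12) and the iron transporter Slc11a2 at 0.44 (SE 0.27). Of 8 factors described as partners or substrates of Jmjd1c, 7 were measured, 0 passed by limma and 0 had an unadjusted p under 0.05. The thyroid hormone receptor gene Thra was at 0.38 (SE 0.19), Thrb at 0.24 (SE 0.34) and the DNA damage mediator Mdc1 at -0.08 (SE 0.12).

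The 4 genes described as dependent on Kdm3a or Kdm4c in mouse embryonic stem cells all had negative differences, with a median of -0.60. By limma 0 passed after adjustment and 2 had an unadjusted p under 0.05, beside 10.3% of all genes. This short list was chosen with earlier results of these data known, so its shared sign is a description only. Tcl1, a cofactor of Akt kinases, read 1593 and 2503 in shNT, 766 and 1155 in sh3, and 511 and 1159.9 in sh4, all knockdown arrays below both controls (log2 -1.21, SE 0.32, limma adjusted p = 0.332, and 0.0026 with the block). Tfcp2l1, a naive-state transcription factor, read 1839 and 3896 in shNT, 1144 and 1970.2 in sh3, and 1131 and 2141 in sh4. There replicate 2 exceeded replicate 1 in each group and the groups overlapped (log2 -0.80, SE 0.35, limma adjusted p = 0.570, and 0.0044 with the block). Nanog was at -0.40 (SE 0.19) and did not pass with the block (limma adjusted p = 0.0644). With the block 2 of the 4 passed, beside 1.54% of all genes. Nanog and Tfcp2l1 are also among the 12 stem cell markers above, so the 2 lists are not separate. Several of these genes also mark undifferentiated cells, whose markers were lower as given above, and the part of that in these values was not tested.

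**Figure D4:**
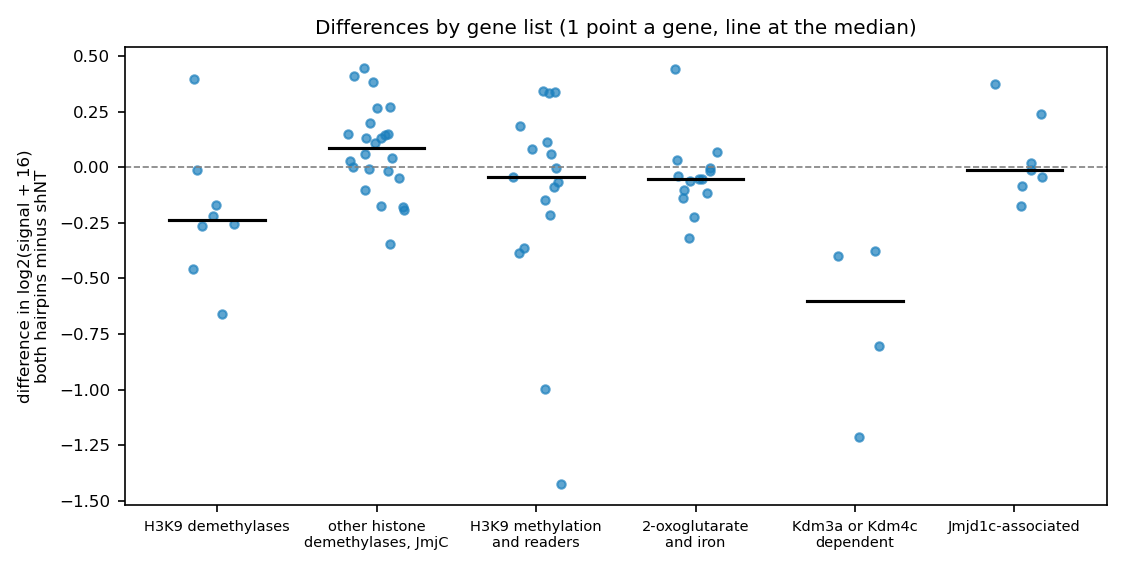
Difference in log2(signal + 16) between the mean of both hairpins and shNT (vertical axis), with 1 point for each gene at its brightest probe set and a line at the median of each of 6 gene lists. The H3K9 demethylases, with Jmjd1c read at 1426900_at, center on -0.24 and the other JmjC and LSD genes on 0.08. The methylation and reader genes center on -0.04 and the cofactor supply genes on -0.05. The genes described as dependent on Kdm3a or Kdm4c center on -0.60 and the Jmjd1c-associated factors on -0.01.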

How the data were processed

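The authors deposited 1 linear signal intensity per probe set and array, computed with MAS5 according to the submitters' processing notes, which name no version. Of 45101 probe sets, 64 controls were left out. Of the rest, 34945 had 1 gene symbol, 932 several and 9160 none; member probe sets were those with 1 symbol, matched by current or older symbol. Signals were transformed to log2(signal + 16), which understates changes of dim probe sets, and a model with 1 mean per group was fitted to the 6 arrays with limma 3.58.1 (R 4.3.3; residual df 3, prior df 5.81; moderation with an intensity trend). Tests were 2-sided, p-values were adjusted by Benjamini-Hochberg across all 45037 probe sets, the threshold was 0.05 and no filter was used. Errors of signals are SDs and errors of log2 values standard errors. The fit without the block was tested on simulated arrays that varied independently of one another, so that test does not bear on the block.

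No label states a shared day for same-numbered samples. Deviations of same-numbered arrays correlated at 0.207 to 0.302 across probe sets at or above the 40th percentile, so a fit with the replicate number as a block (2 residual df) is given beside results whose call it changed. That pairing rests on these arrays alone, and the reported differences, intervals and p-values come from the fit without the block unless said otherwise. Nothing in the labels says whether replicates were separate infections, and p-values measure only the spread between these samples. The number of arrays limits the precision.

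All member probe sets are named. For each other list, the cell type markers included, the 3 genes with the smallest p in the knockdown mean are named. Of the markers, Pou5f1 and Lum are named besides these. For each Jmjd1c probe set the 4 genes with the highest Pearson r are named among those at or above the 40th percentile, passing over RIKEN and Gm symbols. Members and lists were chosen with earlier results of these data known. Some genes of the lists were not analysed here.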

Additional observations from a re-analysis of the deposited data

How the results depend on the processing

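With the replicate number as a block, probe sets called by limma numbered 466 in the knockdown mean (291 higher, 175 lower), 243 in sh3, 416 in sh4 and 1 for sh4 minus sh3, against 19, 0, 7 and 0 without it. For the members, the block moved 4 values past the threshold, all of Jmjd1c, and changed no other member's call. The knockdown mean gave 32 calls with a pseudocount of 1, 1 with 64, 12 with quantile normalization, 8 with median centring, 41 and 34 with filters at the 40th and 60th percentiles, 0 without an intensity trend and 35 with both hairpins as 1 group. For sh4 the counts were 30, 4, 37, 33 and 0 with pseudocounts of 1 and 64, both filters and no trend. Leaving out any 1 of the 6 arrays left 0 calls in every contrast by limma (2792 to 4837 probe sets with an unadjusted p under 0.05 in the knockdown mean, 1961 to 4597 in sh3, 2996 to 4714 in sh4 and 1607 to 2702 for sh4 minus sh3), with fewer arrays in each fit.

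In the knockdown mean Jmjd1c kept its sign at each probe set in every setting that read probe sets singly: leaving out 1 array gave -0.55 to -0.37 at 1426900_at, 0.81 to 1.00 at 1448049_at and 0.51 to 0.95 at 1439998_at. The Jmjd1c ratio lay between 1.17 and 1.47 for 1448049_at, and between 0.91 and 1.48 for 1439998_at, with 1 array left out. Averaging the probe sets of a gene turned Jmjd1c to 0.39 and Kdm4a to 0.023. Scaling turned Kdm4a 1446699_at to -0.0051 (quantile) and -0.016 (median centring) in the knockdown mean, and, for sh4 minus sh3, Jmjd1c 1448049_at to -0.015 (median centring) and Kdm4d to -0.013 (quantile), -0.0055 (median centring) and -0.0024 (pseudocount of 1). In all, 8 of 442 member values changed sign under these settings, and 25 of 336 with 1 array left out, none of them past the threshold.

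With 1 array left out, the knockdown mean ranged from -0.069 to 0.042 for Kdm4a 1435340_at, -0.26 to 0.38 for Kdm4a 1446699_at and -0.42 to 0.076 for Kdm4c. Ranges of the same sign but wide were 0.14 to 0.66 for Kdm4b, -0.64 to -0.23 for Kdm3b 1458417_at, -0.94 to -0.38 for Kdm4d, and 0.20 to 0.82, -0.32 to -0.12 and -0.42 to -0.19 for Phf8 1459392_at, 1460398_at and 1439132_at. In sh3 the ranges that crossed 0 were -0.41 to 0.23 (Kdm4a 1446699_at), -0.0051 to 0.51 (Kdm4b) and -0.37 to 0.13 (Kdm4c). In sh4 they were -0.30 to 0.0081 (Kdm3a), -0.37 to 0.78 (Kdm4a 1446699_at) and -0.47 to 0.026 (Kdm4c). For sh4 minus sh3 they were -0.13 to 0.24 (Jmjd1c 1448049_at), -0.30 to 0.50 (Jmjd1c 1439998_at), -0.26 to 0.058 (Kdm3b 1428320_at), -0.28 to 0.87 (Kdm4a 1446699_at), -0.48 to 0.61 (Kdm4d) and -0.20 to 0.14 (Phf8 1460398_at). No detection calls were used here, so how far dim probe sets lie above background is unknown.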
